A study of Rattus norvegicus with 65 samples.

Results

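The 10 genes described here are standard markers of microglia. They were chosen by name, as the rows of the count table for Aif1, Cx3cr1, P2ry12, Tmem119, Csf1r, C1qa, C1qb, C1qc, Itgam and Cd68, and were followed in all 65 libraries. They make up 10 of 38513 rows. All 10 passed the filter on low counts, together with 21861 other genes, and were tested in a model fitted across all 21871.

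Microglia are the resident macrophages of the brain. They settle there during embryonic development, depend on signals through the CSF1 receptor for survival, watch neurons through purinergic and fractalkine receptors, and clear debris and synapses with the help of complement. In the hypothalamus of rodents, high-fat feeding is known to be accompanied by a local reaction of microglia. Several of the markers are shared with the macrophages of meninges, perivascular spaces and choroid plexus, which lie at the borders of the brain.

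Whole hypothalamus of male Wistar rats was sequenced as 1 library per animal. The animals arrived at an age of 9 to 10 weeks, received a high-fat diet for 6 weeks to make them obese as far as the methods describe them, and were euthanized, after a fast of 10 h, when 4 weeks had passed since the intervention. There were 14 animals with Roux-en-Y gastric bypass (RYGB), 11 with sham surgery and 7 with sham surgery whose food was restricted so that their weight followed the RYGB animals (BWM). A further 8 animals received saline, 5 liraglutide (0.4 mg/kg/day, injected), 4 PYY3-36 (0.1 mg/kg/day, by osmotic minipump) and 10 both hormones, and 6 animals were labelled lean, with no diet or treatment given in the labels. The study also names a group on a low-fat diet only, which the labels do not tie to these 6. The groups other than BWM and lean chose freely between a high-fat and a low-fat diet. The libraries came from 2 experimental periods, called batch A (37 libraries) and batch B (28 libraries). RYGB (11 in A, 3 in B), sham (5 and 6), saline (3 and 5) and PYY3-36 + liraglutide (5 and 5) were in both. BWM and lean animals were only in batch A, and liraglutide and PYY3-36 animals only in batch B.

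Between 20041010 and 36539941 counts fell on genes per library. The members were measured with 20 counts (Cd68) to 5258 counts (Csf1r) in a library, so none was at 0 in any library. The tissue itself varied. In 13 libraries, 4 of them sham, the summed level of markers of hypothalamic nuclei was at most 583 CPM (counts scaled to library size by TMM), against at least 901 CPM in the others, and BWM replicate 5 held 78552 CPM of pituitary markers. The main results are also given without these 14 libraries, of which 0 were RYGB, so that RYGB vs. sham then loses sham animals only. Fewer microglia and less RNA per microglial cell cannot be told apart in bulk tissue.

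The 3 chains of C1q, the recognition molecule of the classical complement pathway, were among the most abundant members. Per kb of exon, C1qa had the highest level of the 10, with a median of 72.0 CPM per kb over 65 libraries (44.6 to 125). C1qb followed at 43.6 (25.5 to 85.3) and C1qc at 27.3 (14.6 to 55.8). The ranges of neighbours in this order overlapped. The genes lie side by side on the minus strand of chromosome 5 of Rnor_6.0, C1qb at chr5:155246444-155251995, C1qc at chr5:155255013-155258631 and C1qa at chr5:155261254-155264101, within 17658 bases. The ratios between their levels were computed in each animal. The ratio of C1qa to C1qb in CPM had a median of 1.60 and ran from 1.27 to 1.95, with a coefficient of variation (CV) of 9.25%. The CV was 12.8% for C1qa to C1qc, which ran from 1.30 to 2.65, and 13.9% for C1qb to C1qc, which ran from 0.908 to 1.98. For comparison, the ratio of Cx3cr1 to Csf1r had a CV of 24.0% and that of Cx3cr1 to Aif1 a CV of 42.0%.

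Of the 10 members, 6 had an entry in the RefSeq table of rat promoters (build GRCr8). The 250 bases before the start of the 2 most abundant members, and of Cx3cr1, the member on which the surgical comparison turns, are printed here 5′ to 3′ on the strand of the gene. Capitals mark exact matches, on either strand, to GAGGAA, a form of the site bound by PU.1, the myeloid transcription factor encoded by Spi1. GAGGAA was present in 23.3% of 33469 promoters of this length. It occurred 2 times in C1qb, Csf1r and Itgam, 1 time in Cd68 and not in the windows of C1qa and Cx3cr1. The promoter of C1qa lies at chr5:154419934-154420183, that of C1qb at chr5:154407828-154408077 and that of Cx3cr1 at chr8:128677067-128677316, all on the minus strand of GRCr8.
C1qa: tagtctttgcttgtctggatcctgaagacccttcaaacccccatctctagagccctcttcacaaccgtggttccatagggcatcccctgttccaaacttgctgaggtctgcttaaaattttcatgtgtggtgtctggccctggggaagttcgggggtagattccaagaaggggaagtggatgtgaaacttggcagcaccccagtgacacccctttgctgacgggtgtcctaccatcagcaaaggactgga
C1qb: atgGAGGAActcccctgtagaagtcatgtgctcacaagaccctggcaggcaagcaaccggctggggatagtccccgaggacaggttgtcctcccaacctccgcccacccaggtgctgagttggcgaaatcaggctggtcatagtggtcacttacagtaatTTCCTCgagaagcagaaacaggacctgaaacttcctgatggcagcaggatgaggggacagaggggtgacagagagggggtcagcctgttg
Cx3cr1: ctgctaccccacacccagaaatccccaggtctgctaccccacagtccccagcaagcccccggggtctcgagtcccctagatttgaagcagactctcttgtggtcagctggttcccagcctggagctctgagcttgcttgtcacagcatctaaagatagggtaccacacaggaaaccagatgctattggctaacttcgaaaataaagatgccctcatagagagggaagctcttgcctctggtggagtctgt
C1qa and C1qb had 0 and 2 exact matches to these letters in the windows printed. Sites with other letters were not searched, and binding of PU.1 was not tested.

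Csf1r (chr18:56414493-56458300, plus strand, Rnor_6.0) encodes the receptor for CSF1 and IL-34 on which microglia depend for survival. Its median level was 24.2 CPM per kb (14.5 to 38.0). Aif1 (chr20:5161350-5167176, minus strand) encodes IBA1, the calcium- and actin-binding protein most used to stain microglia, and had a median of 22.6 (11.8 to 46.0). Cx3cr1 (chr8:128740756-128754514, minus strand) encodes the receptor for fractalkine, a ligand made by neurons. It had a median of 11.3 CPM per kb (4.41 to 20.1). Tmem119 (chr12:48598498-48605704, plus strand), a membrane protein used to tell microglia from other macrophages, and P2ry12 (chr2:149440807-149482592, minus strand), the ADP receptor that guides microglial processes, had medians of 6.12 and 5.09. Itgam (chr1:199495312-199545738, plus strand), the alpha chain of complement receptor 3, and Cd68 (chr10:56268726-56270605, minus strand), a lysosomal glycoprotein of phagocytes, were lowest at 2.90 and 2.10. The CV over all libraries ran from 19.8% for C1qa to 50.6% for Cd68, whose highest library was 9.24 times the lowest.

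**Figure D1:**
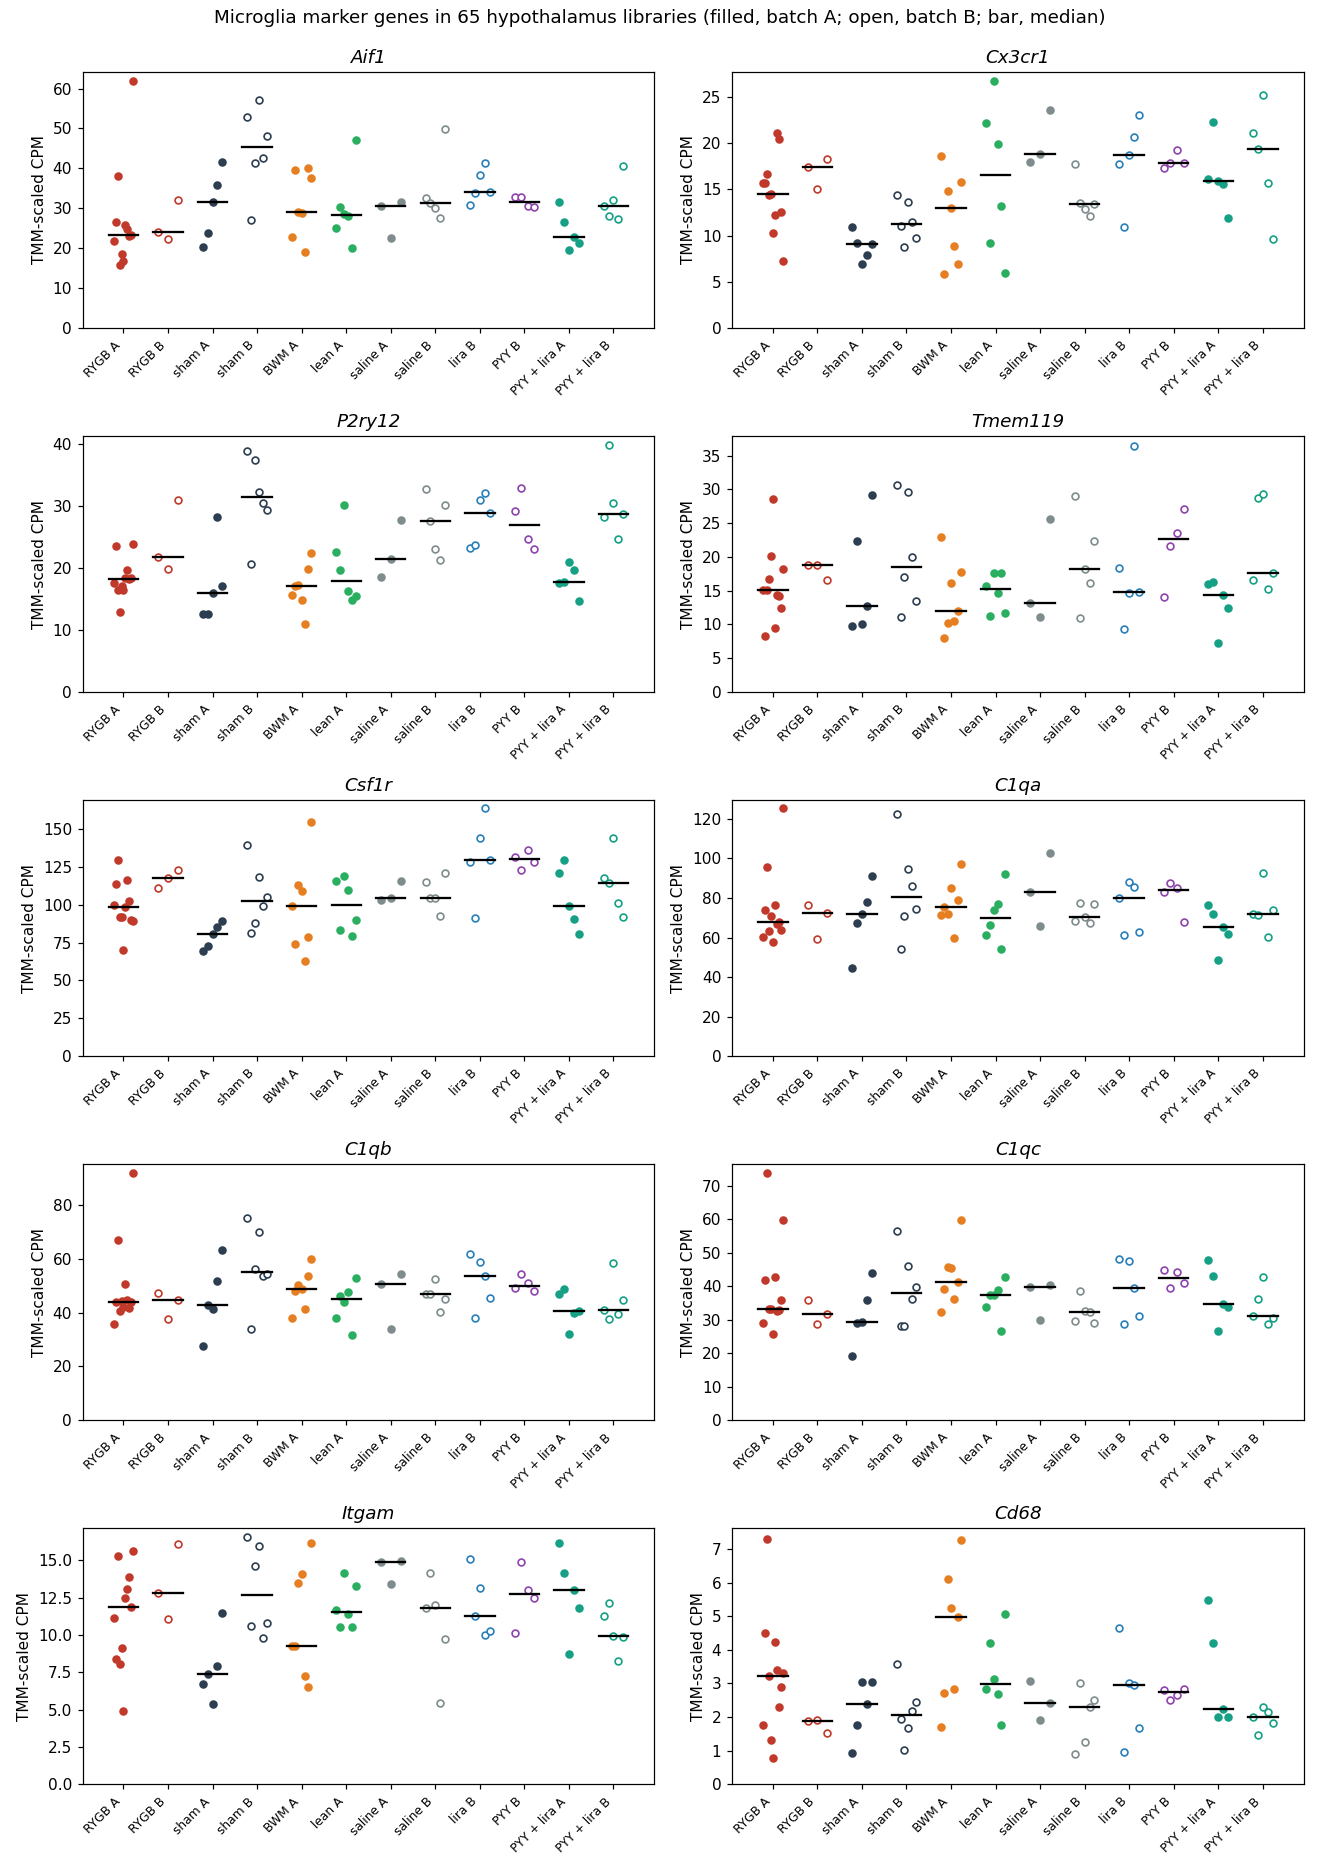
Level of each of the 10 microglia marker genes in every library, as TMM-scaled CPM on a linear axis from 0, by group and batch. Each point is 1 animal (filled in batch A, open in batch B) and each bar the median of its group in that batch. Cx3cr1 lies lower in the sham animals of batch A (6.96 to 10.9 CPM) than in most other animals, and without overlap below the 3 saline-treated animals of that batch (18.0 to 23.6 CPM).

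The summed CPM of the 10 genes ran from 222.2 to 550.0 with a median of 366.3. In batch A it was 222.2 to 398.9 (median 296.1) in sham animals, 273.1 to 496.1 (336.6) in RYGB animals and 259.2 to 488.7 (342.7) in BWM animals. The 3 ranges overlapped.

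RYGB vs. sham addressed the operation together with the weight loss and lower food intake that followed it, which this comparison cannot tell apart. Cx3cr1 was higher in RYGB-treated animals and was the only member that passed the test, 1 of 10, where 13% of all genes did, and 2 of 10 had an unadjusted p under 0.05, as did 30% of all genes. Another 5 members had fold changes between -0.10 (P2ry12) and 0.08 (C1qc) on the log2 scale. The median log2 fold change was 0.01 over the members and -0.02 over all genes tested.

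Cx3cr1 in the 5 sham animals of batch A was at 10.9, 9.22, 6.96, 7.90 and 9.09 CPM. The 11 RYGB-treated animals of that batch ran from 7.25 CPM over a median of 14.5 to 21.1. In batch B, the 6 sham animals ran from 8.73 over a median of 11.3 to 14.4 CPM, and the 3 RYGB-treated animals were at 17.4, 15.0 and 18.3. The groups overlapped in batch A, where the lowest RYGB animal, replicate 11, lay within the sham range. In batch B they did not. Cx3cr1 was the 1 member of 10 without overlap in batch B, against 15.8% of all genes, and 0 of 10 were without it in batch A, against 0.434%. The same libraries of batch B were also without overlap in total counts, 25378876 to 26975421 in RYGB and 20041010 to 22967576 in sham animals. Mitochondrial rRNA and tRNA made up 0.88 to 1.20% of their counts in RYGB and 1.27 to 3.19% in sham animals. The part of these differences in the levels was not tested. Over both batches the mean was 15.1 CPM ± 3.77 (SD, n = 14) in RYGB and 10.3 CPM ± 2.28 (SD, n = 11) in sham animals. The log2 fold change was 0.59 (SE 0.19, 95% interval 0.22 to 0.97, adjusted p = 0.0289 by edgeR's quasi-likelihood test with Benjamini-Hochberg adjustment). It was 0.73 in batch A (SE 0.24, adjusted p = 0.0454, 1 of 10 members called where 8.57% of all genes were). In batch B it was 0.57 (adjusted p = 0.264), with 0 of 10 members and 2.72% of all genes called. There 1 member other than Cx3cr1 and 21.6% of all genes had an unadjusted p under 0.05.

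The call for Cx3cr1 stood close to the threshold. It was lost when RYGB replicate 12 or 14 or sham replicate 2, 3, 4 or 5 was left out (adjusted p = 0.0505, 0.0536, 0.0511, 0.0593, 0.0594 and 0.0574), while the log2 fold change stayed between 0.54 and 0.64. Without the 14 libraries that stood apart, 4 of them sham and 0 RYGB, it was 0.68 (adjusted p = 0.0333). Adding the ribosomal score (30 genes) to the model took it to 0.19 (adjusted p = 0.551). This loss was not particular to Cx3cr1, since the same covariate took the calls over all genes from 2853 to 120.

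Aif1 had the second-largest difference of the members and the opposite sign. The 5 sham animals of batch A were at 20.3, 23.8, 31.6, 35.9 and 41.6 CPM, and the 11 RYGB-treated animals ran from 15.8 over a median of 23.3 to 61.9. In batch B the 6 sham animals ran from 27.0 over a median of 45.4 to 57.2, and the 3 RYGB-treated animals were at 24.0, 22.3 and 32.1. The groups overlapped in both batches, and the highest value of all came from RYGB replicate 11. The log2 fold change was -0.39 (SE 0.16, 95% interval -0.72 to -0.06, adjusted p = 0.0957), so Aif1 was not called. Without the 14 libraries that stood apart it was -0.50 (adjusted p = 0.0646). Without RYGB replicate 11 it was -0.54 (adjusted p = 0.00386) and without sham replicate 1 it was -0.46 (adjusted p = 0.0470).

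RYGB replicate 11 had, of the 11 RYGB-treated animals of batch A, the highest CPM of Aif1, P2ry12, C1qa, C1qb and Itgam and the lowest of Cx3cr1. Its summed level of ribosomal protein genes was 14662 CPM, the highest of the group, whose median was 6731. Of 30 ribosomal protein genes tested, 7 were lower and 0 higher in RYGB-treated animals, where 13% of all genes were called in either direction, with a median log2 fold change of -0.29. In batch B their sum was 7420 to 8403 CPM in RYGB and 9404 to 13237 CPM in sham animals, without overlap. In batch A it was 5908 to 14662 CPM and 6159 to 10100 CPM, and the groups overlapped. Residual levels within groups and batches were compared over 65 libraries, which differ in depth and in tissue content. That of Aif1 had a Pearson correlation of 0.77 with the ribosomal score (Spearman 0.65) and that of Cx3cr1 of -0.69 (Spearman -0.54). Without the 2 libraries farthest from the median score they were 0.65 and -0.59. With this score as a covariate the log2 fold change of Aif1 was -0.07, as against -0.39 without it.

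**Figure D2:**
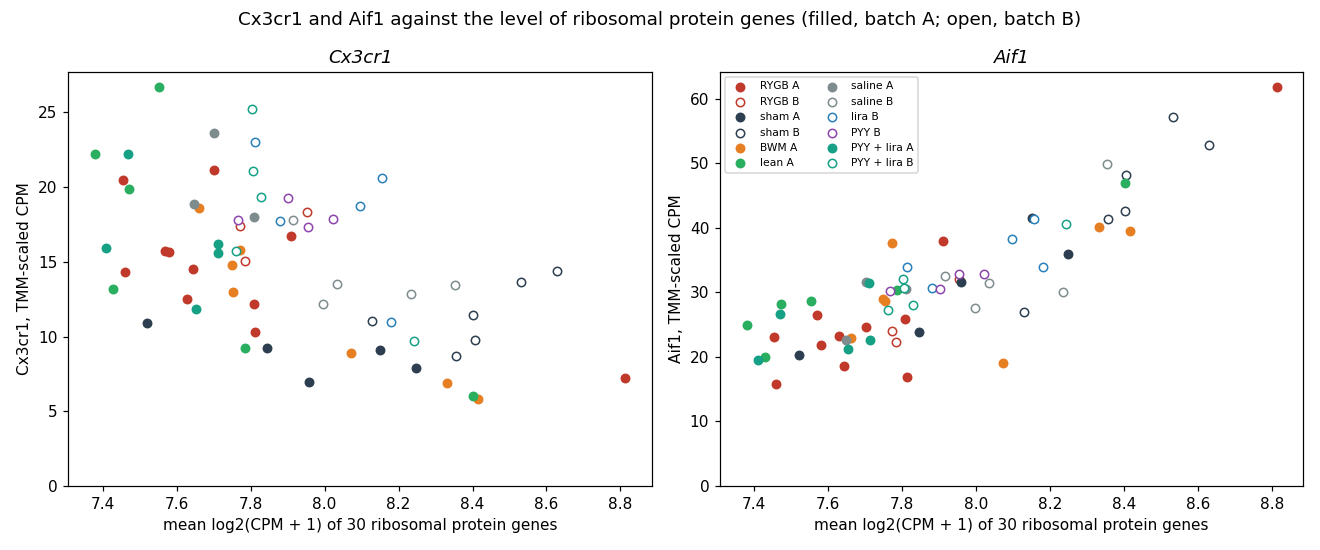
Level of Cx3cr1 (left) and Aif1 (right), as TMM-scaled CPM on linear axes from 0, against the mean log2(CPM + 1) of 30 ribosomal protein genes; each point is 1 of 65 libraries, coloured by group, filled in batch A and open in batch B. Cx3cr1 is lower and Aif1 higher where the ribosomal score is higher, and RYGB replicate 11 lies at the right end of both panels (score 8.81, Cx3cr1 7.25 CPM, Aif1 61.9 CPM).

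The remaining members did not pass the test. Csf1r had a log2 fold change of 0.22 (adjusted p = 0.170), Cd68 of 0.21 and Itgam of 0.18. For the C1q chains it was -0.06 (C1qa, 95% interval -0.30 to 0.18), -0.07 (C1qb) and 0.08 (C1qc). P2ry12 and Tmem119 were at -0.10 and -0.08, with intervals of -0.37 to 0.16 and -0.51 to 0.34. Within batch A, 8 of 10 members had a positive value, with a median of 0.23, led after Cx3cr1 by Itgam (0.54, adjusted p = 0.0778). Within batch B, 3 of 10 were positive and the median was -0.26, and Aif1 was at -0.77 (adjusted p = 0.0947). The difference between batches itself was called by edgeR for 0 of 10 members and 0.0% of all genes, with 1 member and 10.4% of all genes at an unadjusted p under 0.05 (C1qc, -0.62, p = 0.0384, adjusted p = 0.439).

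**Figure D3:**
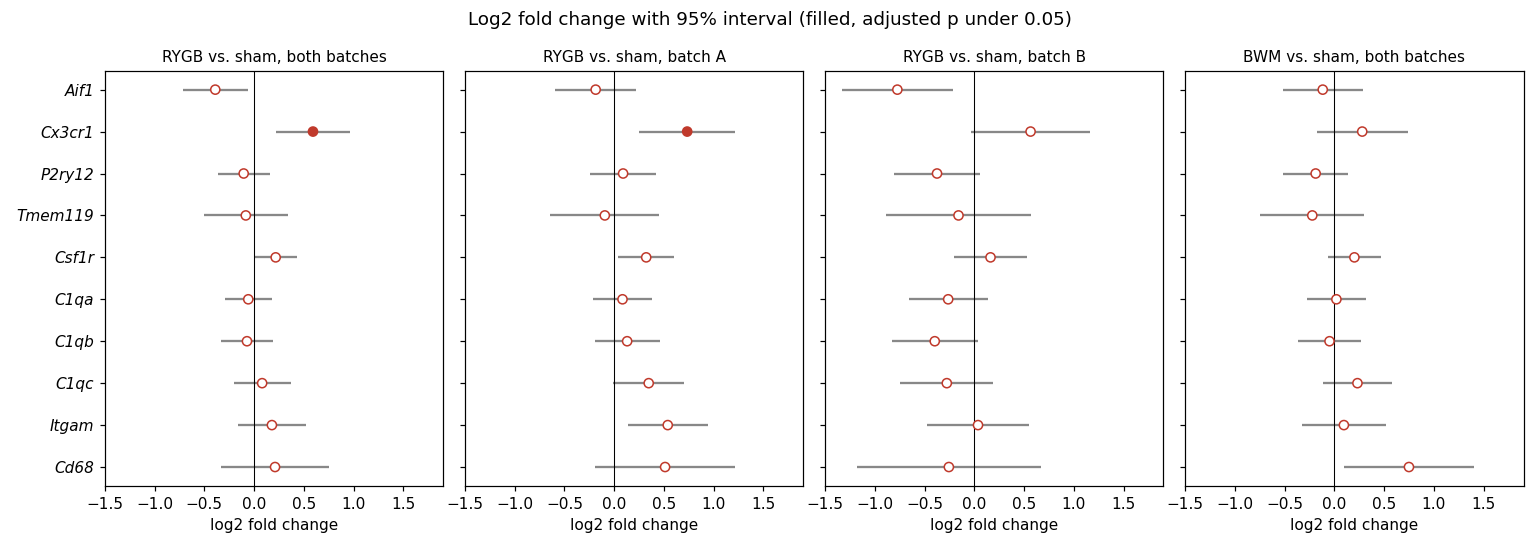
Log2 fold change of the 10 members in RYGB vs. sham over both batches, in batch A and in batch B, and in BWM vs. sham over both batches; points are estimates, filled where the adjusted p is under 0.05, and bars are 95% intervals. Cx3cr1 is the filled point, at 0.59 over both batches and 0.73 in batch A, and Aif1 lies below 0 in the 3 panels of RYGB vs. sham.

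The genes that work with the members were read from lists written by role, and their counts stand beside the 13% of all genes called in RYGB vs. sham. Of 19 other homeostatic microglia genes tested, 1 rose and 1 fell in RYGB-treated animals, no larger a share than over all genes. Rgs10, a regulator of G-protein signalling, fell by 0.85 on the log2 scale (adjusted p = 0.00193), and Mertk, a receptor for the uptake of dying cells, rose by 0.65 (adjusted p = 0.0205). Gpr34, a receptor gene typical of microglia, had a value of 0.10.

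Among 19 regulators and signalling genes of myeloid cells, 2 rose, again no larger a share than the 13% over all genes. They were Ikzf1, a transcription factor of blood cell lineages (0.74, adjusted p = 0.00603), and Ptprc, the leukocyte phosphatase CD45 (0.77, adjusted p = 0.0134). Spi1 and Irf8, the factors that set up the microglial lineage, were at 0.01 and -0.07. Of 8 ligands of microglial receptors, 0 were called by edgeR, and 0 had an unadjusted p under 0.05. Cx3cl1, the ligand of Cx3cr1, was at -0.44 (adjusted p = 0.199) and Csf1 at 0.16.

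Among 15 other complement genes, 1 rose, the complement inhibitor Cd55 (0.76, adjusted p = 0.0307), and 14 had positive values. This share of calls was below the 13% over all genes. C1r and C1s, the proteases that act with C1q, were at 0.74 and 0.77 without passing the test (adjusted p = 0.153 and 0.159). Among 20 genes of microglial activation and lysosomes, 2 rose, also a smaller share than 13%. These were Axl, a receptor for the uptake of dying cells (0.87, adjusted p = 0.00148), and Cybb, the catalytic chain of the phagocyte NADPH oxidase (2.14, adjusted p = 0.00558). Apoe and Lpl, genes often raised in reactive microglia, were at -0.13 and -0.88 (adjusted p = 0.410 and 0.0734). Of 11 antigen presentation genes, 0 were called, with 1 at an unadjusted p under 0.05 and a median of 0.30.

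Markers of macrophages outside the brain tissue were also higher in RYGB-treated than in sham animals of batch A. The sum of 12 border macrophage markers was 33.2 to 210 CPM in RYGB-treated and 21.3 to 28.5 CPM in sham animals of that batch, without overlap, and 26.0 to 39.4 CPM and 27.4 to 67.4 CPM in batch B. In batch A, animals without the bypass also lay above the sham range. Lean animals were at 31.0 to 91.0 CPM, saline-treated at 29.9 to 64.7 CPM and PYY3-36 + liraglutide-treated at 46.2 to 124 CPM. BWM animals, at 27.4 to 201 CPM, overlapped the sham range. Of 11 such markers tested in RYGB vs. sham, 9 were called in batch A (median log2 fold change 2.16), where 8.57% of all genes were. In batch B 0 were called (median -0.30), where 2.72% of all genes were. In the model of both batches 1 was called, Ms4a7 (2.77, adjusted p = 0.0266), and Mrc1 and Cd163, scavenger receptors of these cells, were at 1.12 and 1.13. Meninges markers were called for 10 of 10 in batch A, against the same 8.57% of all genes, with a median of 3.48. Ms4a7 was at 0 counts in 21 libraries. Markers of monocytes, granulocytes and lymphocytes summed to 4.37 to 19.5 CPM over all libraries, with 0 of 10 called by edgeR in RYGB vs. sham and 1 at an unadjusted p under 0.05. The part of these cells in the results for Cx3cr1, Ptprc, Axl and Cybb was not tested.

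BWM vs. sham addressed weight loss without the bypass. No member was called, 0 of 10 by edgeR and by DESeq2, where 0.32% of all genes were, and 1 member and 12.3% of all genes had an unadjusted p under 0.05. That member was Cd68. It was at 0.944, 1.75, 3.04, 2.40 and 3.05 CPM in the sham animals of batch A and ran from 1.72 over a median of 4.97 to 7.26 CPM in the 7 BWM animals. Of the 7 BWM animals, 4 lay above all 5 sham animals of the batch, and the ranges overlapped. The log2 fold change was 0.75 (SE 0.33, p = 0.0263, adjusted p = 0.326), and 0.97 against the sham animals of batch A alone (adjusted p = 0.122, with 0 of 10 members and 5.31% of all genes called). It was 0.90 without the 14 libraries that stood apart and 0.09 with the scores of pituitary, choroid plexus and meninges markers as covariates. Border macrophage markers ran from 27.4 to 201 CPM in BWM animals, and 9 of 11 were called in batch A, where 5.31% of all genes were.

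**Figure D4:**
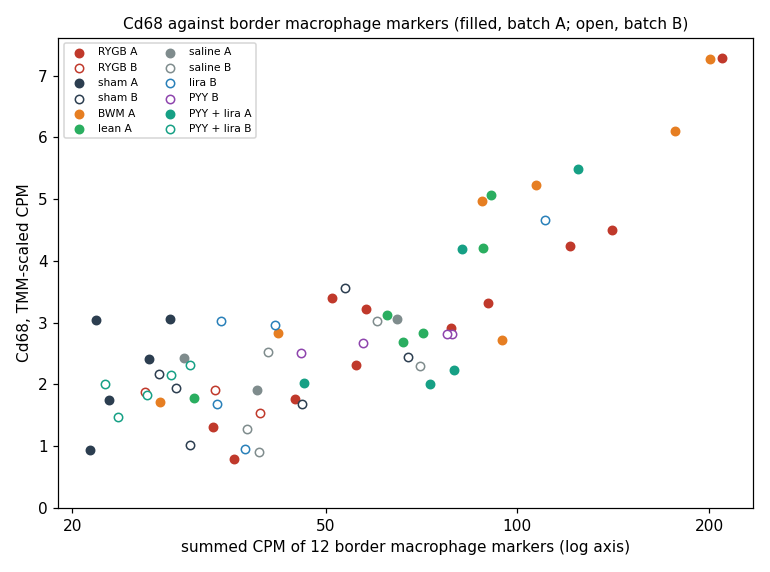
TMM-scaled CPM of Cd68 on a linear axis from 0 against the summed CPM of 12 border macrophage markers on a log axis; each point is 1 of 65 libraries, coloured by group, filled in batch A and open in batch B. Cd68 is higher where the sum is higher, and the highest Cd68 values, 7.29 CPM in an RYGB and 7.26 CPM in a BWM animal, lie at sums of 210 and 201 CPM.

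Across the 65 libraries Cd68 was the member closest to the border macrophage markers. The correlation of residuals within groups and batches was 0.80 (Spearman 0.74), 0.85 in batch A and 0.65 in batch B. It was 0.70 for C1qc, 0.17 for P2ry12 and -0.20 for Tmem119, whose points share the same libraries. The gene whose residuals were closest to those of Cd68 was Stab1, a scavenger receptor of such macrophages (0.82, chosen after its value was seen).

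In the other comparisons with sham and BWM animals no member was called either. For lean vs. sham, 0 of 10 members and 0.0% of all genes were called by edgeR, 0 members by DESeq2, and 1 member and 12.2% of all genes had an unadjusted p under 0.05. Cx3cr1 in lean animals ran from 5.99 over a median of 16.5 to 26.7 CPM, which overlapped the sham animals. The log2 fold change was 0.71 (SE 0.24, p = 0.00371, adjusted p = 0.248), and without lean replicate 6 it was 0.88 (adjusted p = 0.0276). Without the 14 libraries that stood apart it was 1.01 (adjusted p = 0.0679). For RYGB vs. BWM, 0 of 10 members were called by both tools (0.343% of all genes), with 0 members and 12.6% of all genes at an unadjusted p under 0.05 and a smallest adjusted p of 0.427.

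Cx3cr1 had the smallest p of the members in sham vs. saline as well, the comparison with the controls of the hormone groups. The 3 saline-treated animals of batch A were at 18.0, 18.9 and 23.6 CPM, all above the 5 sham animals of that batch. In batch B, saline-treated animals were at 17.8, 13.5, 12.8, 12.2 and 13.4 CPM and overlapped the sham animals. The log2 fold change of sham vs. saline was -0.67 (SE 0.20, p = 0.0016, adjusted p = 0.229), and -0.63 (adjusted p = 0.297) without the 14 libraries that stood apart. RYGB vs. saline, which shares the saline libraries, was at -0.08. In sham vs. saline 0 of 10 members were called by edgeR and by DESeq2 (0.0137% of all genes), with 1 member and 12.9% of all genes at an unadjusted p under 0.05.

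Itgam was also without overlap within batch A, at 14.9, 13.4 and 15.0 CPM in saline-treated and 6.70, 7.37, 5.38, 7.94 and 11.4 CPM in sham animals. Csf1r was at 103, 104 and 116 CPM and at 69.6, 72.8, 80.6, 85.5 and 89.1 CPM. These 3 members did not overlap between the groups in batch A, where 8.26% of all genes did not, and 0 of 10 members and 0.764% of all genes were without overlap in batch B. The difference between the batches was 1.19 for Itgam (adjusted p = 0.171) and 0.92 for Cx3cr1 (adjusted p = 0.386). In RYGB vs. saline (0.00457% of all genes called) and BWM vs. saline (0.0412%), 0 of 10 members were called by both tools, with 0 and 1 at an unadjusted p under 0.05, as were 2.08% and 6.47% of all genes.

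The hormone groups were compared with saline at 1 dose each. PYY3-36 vs. saline called 0 of 10 members and 0.0% of all genes, with log2 fold changes from -0.13 to 0.50. Liraglutide vs. saline called 0 of 10 and 0.0%, with values from -0.10 to 0.47. PYY3-36 + liraglutide vs. saline called 0 of 10 and 0.00457%, with values from -0.16 to 0.15. DESeq2 called 0 members in all 3 comparisons as well, and 0 members had an unadjusted p under 0.05 in any of them, where 7.54%, 2.08% and 2.53% of all genes did.

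Csf1r in the 4 PYY3-36-treated animals was at 132, 123, 136 and 128 CPM, and in the 5 saline-treated animals of batch B at 115, 104, 104, 92.4 and 121. C1qc was at 44.9, 39.3, 44.1 and 40.9 CPM against 29.5, 38.5, 32.6, 32.3 and 28.9. For both members all PYY3-36-treated animals lay above all saline-treated ones. The groups were without overlap for 2 of 10 members and for 6.38% of all genes in this comparison. The log2 fold changes were 0.19 for Csf1r (95% interval -0.13 to 0.51) and 0.34 for C1qc (-0.08 to 0.75), and neither passed the test. The sum of meninges markers was 323 to 1147 CPM in the PYY3-36-treated and 189 to 940 CPM in these saline-treated animals.

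Batch B vs. batch A called 3 of 10 members, where 40.7% of all genes were called. P2ry12 was higher in batch B by 0.59 (SE 0.10, adjusted p = 3.67e-06), Aif1 by 0.31 (adjusted p = 0.0462) and Csf1r by 0.21 (adjusted p = 0.0418). The call for P2ry12 was kept in 65 of 65 fits that left out 1 library, that for Csf1r in 52 and that for Aif1 in 43. Cd68 was at -0.47 and Tmem119 at 0.36 (adjusted p = 0.0710 and 0.0782). DESeq2 called P2ry12 and Cd68 (adjusted p = 0.0477), and neither Aif1 (adjusted p = 0.0516) nor Csf1r (adjusted p = 0.0627). Without the 14 libraries that stood apart, Aif1 was at 0.22 and Csf1r at 0.13 (adjusted p = 0.226 and 0.229), and Cd68 was called at -0.66 (adjusted p = 0.0179). With the ribosomal score in the model, Aif1 was at -0.021, and Cx3cr1 (0.44, adjusted p = 0.00526) and Cd68 (-0.65, adjusted p = 0.0249) were called.

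How the members varied together was read from the residual log2 levels within groups and batches of the 65 libraries, which differ in depth and in tissue content. The Pearson correlation of the 45 pairs had a median of 0.44, with 19 above 0.5 and 4 below 0. The C1q chains were the closest, at 0.92 for C1qa and C1qb, 0.88 for C1qa and C1qc and 0.87 for C1qb and C1qc. Aif1 and C1qa had 0.80, C1qc and Cd68 0.78, and Cx3cr1 and Csf1r 0.69. Cx3cr1 had the lowest Pearson correlation with the mean of the other 9 members, 0.19, where C1qa had 0.84. Spearman's correlation did not set it apart, at 0.35 against 0.33 for Tmem119. With Aif1 it had -0.27 (Spearman -0.03, -0.36 in batch A and 0.05 in batch B). In batch B alone, all pairs with Cx3cr1 were positive, from 0.05 (Aif1) to 0.78 (Csf1r).

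**Figure D5:**
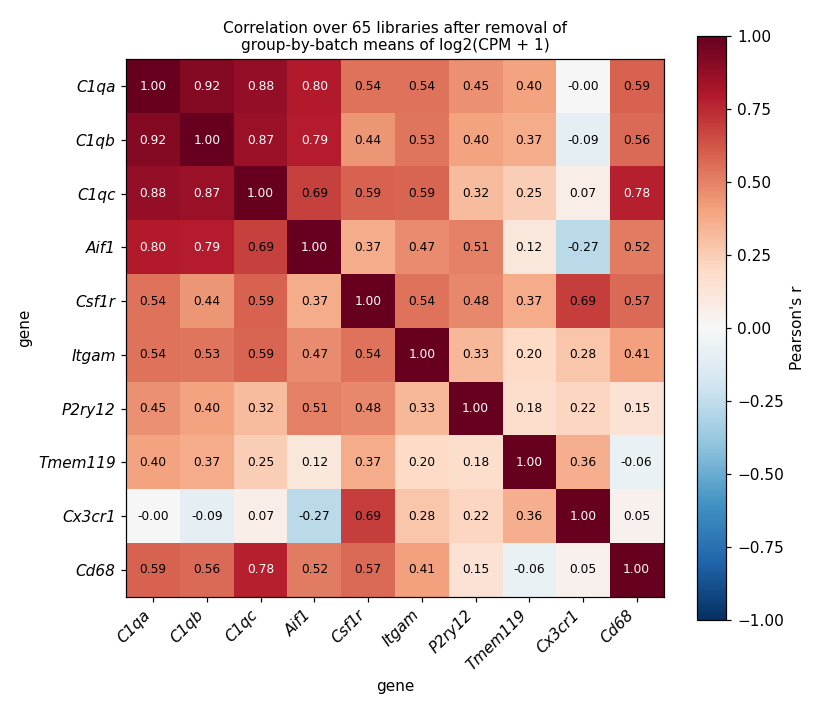
Pearson correlation between the levels of the 10 members over 65 libraries, as log2(CPM + 1) minus the mean of each group and batch; rows and columns are genes and colour runs from -1 to 1. The C1q chains form the closest block (0.87 to 0.92), and Cx3cr1 with Aif1 has the lowest value (-0.27).

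The 10 genes most like the mean of the members, out of 21861, were Laptm5 (0.88), Pld4 (0.85), Cyth4 (0.84), Anxa3 (0.81), Tlr7 (0.78), Hcls1, RT1-DMb, LOC108348139 and Spi1 (each 0.77) and Slco2b1 (0.75). The median over all genes was -0.04. With Spearman's correlation 8 of these 10 were the same, and 5 were in each batch alone. Single members had other neighbours, picked here after their values were seen. Aif1 lay closest to Fcer1g (0.90) and Tyrobp (0.88), which encode signalling adaptors of myeloid cells, and P2ry12 to Gpr34 (0.70). Cx3cr1 lay closest to Sfxn5 (0.88) and Gpr17 (0.84), the latter a receptor of oligodendrocyte precursors, and Tmem119 to Zc3h7b (0.75) and Selplg (0.74).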

How the data were processed

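Hypothalamic RNA of 65 rats was measured as poly-A selected, stranded libraries read for 75 nt from one end. Per the submitters' processing notes and the methods, the authors used cutadapt, STAR 2.7.2b with Rnor_6.0, and featureCounts 1.6.4 on RefSeq exons, by strand. The deposited values are estimated counts per gene. Reads on several places or genes were counted as fractions, so 30.3% of nonzero values were not whole (tolerance 1e-06). They were rounded here.

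Genes were kept by filterByExpr (minimum count 10, minimum total 15), scaled by TMM and tested with edgeR 4.0.16 (R 4.3.3, robust quasi-likelihood) with terms for group and batch on all 65 libraries, and in a second model with 12 group-by-batch means for values within a batch. Calls were made at a Benjamini-Hochberg adjusted p under 0.05 over all genes tested. The authors' further threshold of an absolute log2 fold change over 1 was not asked of the members. Error values are SD for CPM and SE for log2 fold changes. Residuals were log2(CPM + 1) minus group-by-batch means. Numbers of total counts per library set the counting precision, and no pair of libraries was identical. Nothing in the labels names litters or cages, so the tests treated each animal as independent, which could not be checked.

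The members and gene lists were chosen with earlier results of these data known. All members are named. From other lists the first 2 genes tested and the 3 with the smallest p could be named, and the 10 genes most like the member mean. A gene that this rule names is not reported here. Alternatives were DESeq2 1.42.0, its size factors, no filter, counts left as fractions, no batch term, only the groups compared, a replicate block, covariate scores and leaving out each animal. Leaving out 14 libraries that stood apart was chosen after seeing the data. The code was tested on simulated data. Levels and correlations were computed in Python 3.11.15 (pandas 2.3.3).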

Additional observations from a re-analysis of the deposited data

Results flagged for a closer look

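Among 90 sets of 4 to 10 animals (a member in 1 group and batch), 2 had an animal far from the others. Chance flags 1 in 20 of independent sets, but these sets share libraries. The 11 RYGB-treated animals of batch A, replicate 11 among them, and the groups of 3 animals fell outside these sizes and were not searched. Aif1 in saline replicate 8 was at 49.8 CPM, the highest of 5 in batch B, where the next was at 32.6 and the lowest at 27.6. Cx3cr1 in saline replicate 4 was at 17.8 CPM, also the highest of 5 in batch B, with the next at 13.5 and the lowest at 12.2.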

How the results depend on the processing

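Depth limited Cd68 most, with 20 counts in its lowest library, and batch B limits RYGB vs. sham to 3 RYGB-treated animals. Of the results on counts of called members, 326 kept their count or came close to it (3 and 2, for example), 7 rose and 23 fell. Of the log2 fold changes of single members, 3457 kept their side of the threshold, 217 of them with a change of sign in a value that was not called (at most 0.32 in size), 19 passed it newly, 53 no longer passed and 1 reversed, Aif1 in batch B vs. batch A with the ribosomal score as a covariate (-0.021). For RYGB vs. sham, 2 members were called with no batch term or with pituitary, choroid plexus and meninges scores as covariates (Cx3cr1 and Aif1), 0 with the ribosomal score and 0 with the replicate block, and 0 to 2 with an animal left out. With no batch term 2 members were called for BWM vs. sham (P2ry12 and Cd68) and 1 for lean vs. sham (Cx3cr1), where leaving out an animal gave 0 to 1. For batch B vs. batch A, 1 member was called with DESeq2 size factors, no filter or the replicate block, 2 with DESeq2 or without the 14 libraries, 4 with the ribosomal score, and 1 to 4 with an animal left out. Of the 10 genes most like the members, batch A alone kept 5 and batch B alone 5. The cause of these changes was not tested. For RYGB vs. sham with the tissue scores, Cd68 went from 0.21 to -0.30 and C1qc from 0.08 to -0.10. Over all genes, this comparison called 2853, and 5587 with no batch term, 120 with the ribosomal score and 1529 with the replicate block. DESeq2 called 237 in place of 70 for BWM vs. sham, 4 in place of 0 for lean vs. sham and 28 in place of 3 for sham vs. saline, and no batch term gave 2183 for BWM vs. sham and 2339 for lean vs. sham. Without the 14 libraries these 2 called 0 and 196. Nothing in the labels pairs animals by replicate number. The correlation of deviations between RYGB and sham animals with the same number ran from -0.40 to 0.34 over 11 such numbers, and 0 of 11 correlated best with their own number. Numbers 6 to 11 stand for batch A in RYGB and batch B in sham animals, so these could not be pairs. The block, which joins animals across groups and batches by number, took the adjusted p of Cx3cr1 to 0.0931 at a log2 fold change of 0.61.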

Other observations

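Lists that accompany the members were also read in BWM vs. sham. Over all genes, 0.32% were called in this comparison and 12.3% had an unadjusted p under 0.05. Of 11 antigen presentation genes 0 were called by edgeR, 5 had an unadjusted p under 0.05 and 10 were positive, with a median log2 fold change of 1.16. Cd74, the invariant chain of MHC class II, was at 1.65 (adjusted p = 0.298) and Ciita, the master regulator of that class, at 1.96 (adjusted p = 0.114). Among 19 regulators and signalling genes of myeloid cells 1 rose, Plcg2, a phospholipase downstream of immune receptors (1.18, adjusted p = 0.0130). Of 20 activation and lysosome genes 0 were called and 4 had an unadjusted p under 0.05, with Cybb at 2.19 (adjusted p = 0.0774) and Axl at 0.69 (adjusted p = 0.112). Border macrophage markers were positive for 11 of 11 with a median of 1.34, and their part in these values was not tested.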
